A study of Mus musculus with 9 samples.

Results

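Myosin heavy chain is the motor of the thick filament, and each muscle type makes it from a different set of genes. The genes Myh6, Myh7, Myh7b, Myh2 and Myh4 were taken by symbol from a table of read counts with 23457 rows and from a table of FPKM (fragment counts corrected for transcript length and depth) with 23369 rows. All 5 had a row in both tables, and 9 further myosin heavy chain genes were read beside them. The values came from 9 adult mouse hearts on a C57BL/6J background, 5 of wild-type mice (WT hearts 1 to 5) and 4 of mice labelled as germline knockouts of Parkin (KO hearts 1 to 4), an E3 ubiquitin ligase that acts in mitophagy. A germline deletion is carried by every cell of the animal, not by cardiomyocytes alone, and the labels name no treatment. Each heart gave 1 library of polyadenylated RNA, sequenced from a single end without strand information. The RNA came from the frozen ventricular apex, although the tissue label reads whole heart. They accompanied a study of Drosophila hearts, and they serve to compare heart transcripts between genotypes.

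As background, Myh6 encodes alpha-myosin heavy chain, the fast form that dominates the adult mouse ventricle, and Myh7 encodes the slower beta form, which dominates before birth. Thyroid hormone favours Myh6 over Myh7 in rodents, and the balance moves toward Myh7 under many kinds of cardiac stress, so the ratio of the pair is a common readout. Myh7b encodes a slow-type myosin of an older branch of the family and hosts a microRNA gene. Myh2 and Myh4 encode the fast IIa and IIb heavy chains of skeletal muscle.

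Assigned reads ranged from 4415183 to 20827699 per heart, with WT hearts 2 and 3 the shallowest. Summed markers of cardiomyocytes came to 35039 to 38383 CPM (reads scaled to a common library size after TMM normalisation) in WT hearts and 42292 to 46373 in KO hearts. Some defining markers of atrial muscle were close to 0: Myl7 stood at 0.253 ± 0.356 and 0.396 ± 0.453 CPM (mean ± SD, n = 5 and 4) and Sln at 0.120 ± 0.201 and 0. The whole transcriptome differed between the groups, so any count of members has to be read against that background. By edgeR's quasi-likelihood test 51.4% of 12640 genes were called at an adjusted p under 0.05, 26.2% higher and 25.2% lower in KO hearts. After trends with GC content and transcript length were removed, 38.1% were called, 18.6% higher and 19.4% lower. In the FPKM table limma called 53.3%, 47.2% higher and 6.09% lower, and the median gene stood 0.44 higher on the log2 scale, against -0.0059 in the counts. In bulk RNA a change in the number of cells of a type and a change in RNA per cell cannot be told apart.

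The cardiac pair lies in tandem on chromosome 14 of GRCm38 (mm10), both on the minus strand. Myh6 spans chr14:54941921-54966927 and Myh7 chr14:54970684-54994626, with 3756 bases between them. Myh7b lies on the plus strand of chromosome 2 at chr2:155611212-155634307. Myh2, at chr11:67171027-67197517, and Myh4, at chr11:67238029-67260446, belong to the plus-strand skeletal cluster of chromosome 11, with Myh1, the IIx gene, between them. Their longest coding transcripts in GENCODE vM21 are of like size, from 6016 bases in Myh4 to 6230 in Myh7. GC content ranged from 52.8% in Myh4 and 53.7% in Myh2 through 56.2% in Myh7 and 56.4% in Myh6 to 59.2% in Myh7b.

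Long stretches of these transcripts are identical, and a short read from such a stretch does not tell the genes apart. The longest run common to Myh7 and Myh6 is 245 bases of coding sequence that crosses from exon 32 to exon 33 of Myh7 and from exon 30 to exon 31 of Myh6. It is shown from the spliced transcripts with 25 bases on either side, 5′ to 3′, the identical run in capitals. The Myh7 stretch lies within chr14:54974922-54975372 and the Myh6 stretch within chr14:54948302-54948750, both on the minus strand of GRCm38 with an intron in between.
Myh7: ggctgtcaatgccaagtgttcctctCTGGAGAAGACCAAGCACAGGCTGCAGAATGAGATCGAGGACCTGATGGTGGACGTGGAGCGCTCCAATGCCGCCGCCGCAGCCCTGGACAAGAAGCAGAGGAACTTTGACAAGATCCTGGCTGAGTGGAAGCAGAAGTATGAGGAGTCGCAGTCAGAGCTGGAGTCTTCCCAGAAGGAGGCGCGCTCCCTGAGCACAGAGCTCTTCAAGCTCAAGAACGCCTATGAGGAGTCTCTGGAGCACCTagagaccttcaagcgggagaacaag
Myh6: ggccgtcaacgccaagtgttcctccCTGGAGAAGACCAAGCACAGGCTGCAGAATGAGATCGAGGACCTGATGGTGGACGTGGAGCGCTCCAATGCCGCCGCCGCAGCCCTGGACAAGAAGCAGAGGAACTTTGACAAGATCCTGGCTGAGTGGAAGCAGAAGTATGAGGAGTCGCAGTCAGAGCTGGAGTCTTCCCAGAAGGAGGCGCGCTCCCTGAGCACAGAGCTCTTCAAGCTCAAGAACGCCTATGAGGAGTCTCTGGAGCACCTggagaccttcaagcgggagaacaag

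The longest run shared by Myh2 and Myh4 is 146 coding bases, in exons 15 and 16 of Myh2 (chr11:67180876-67181160) and exons 14 and 15 of Myh4 (chr11:67246472-67248571), on the plus strand. It is printed in the same way, to show that the skeletal pair has the same property.
Myh2: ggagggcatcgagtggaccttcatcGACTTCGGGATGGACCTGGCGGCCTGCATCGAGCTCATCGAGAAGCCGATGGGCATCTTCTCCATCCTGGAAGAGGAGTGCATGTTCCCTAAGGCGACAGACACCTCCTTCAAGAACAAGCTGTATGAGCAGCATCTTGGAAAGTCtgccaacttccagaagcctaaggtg
Myh4: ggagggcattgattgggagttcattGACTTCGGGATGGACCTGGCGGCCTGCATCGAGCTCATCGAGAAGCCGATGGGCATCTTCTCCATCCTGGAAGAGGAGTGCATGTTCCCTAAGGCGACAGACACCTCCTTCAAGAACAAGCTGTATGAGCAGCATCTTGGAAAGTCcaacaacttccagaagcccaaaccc

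Myh7b is the exception among the 5. Its longest run in common with Myh7 is 33 bases, in exon 16 of both genes, at chr2:155621307-155621389 (plus strand) and chr14:54988352-54988434 (minus strand) with the bases on either side.
Myh7b: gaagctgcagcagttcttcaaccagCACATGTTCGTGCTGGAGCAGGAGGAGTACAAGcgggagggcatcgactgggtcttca
Myh7: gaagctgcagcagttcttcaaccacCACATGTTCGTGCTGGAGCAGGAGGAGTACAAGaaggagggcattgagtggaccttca

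Read length is not given in the sources used here, so the sharing was counted for windows of several lengths. Of the 6181 windows of 50 bases along the Myh7 transcript, 1373 (22.2%) are identical to Myh6, 39.9% match it with at most 1 mismatch and 50.2% with at most 2. With windows of 36, 75 and 100 bases the identical shares are 28.8%, 15.3% and 11.2%. Seen from Myh6, 22.6% of the 50-base windows are identical to Myh7. Myh2 shares 19.7% of its 50-base windows with Myh1 and 9.94% with Myh4, and Myh4 shares 10.6% with Myh1. No 50-base window of Myh7b is identical to any other annotated transcript, and at most 2 mismatches admit 0.785% of them to Myh7. Between the cardiac and the skeletal genes identity is rare: no window of Myh2 matches Myh6 or Myh7, and 0.117% of Myh4 windows match each of them.

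**Figure D1:**
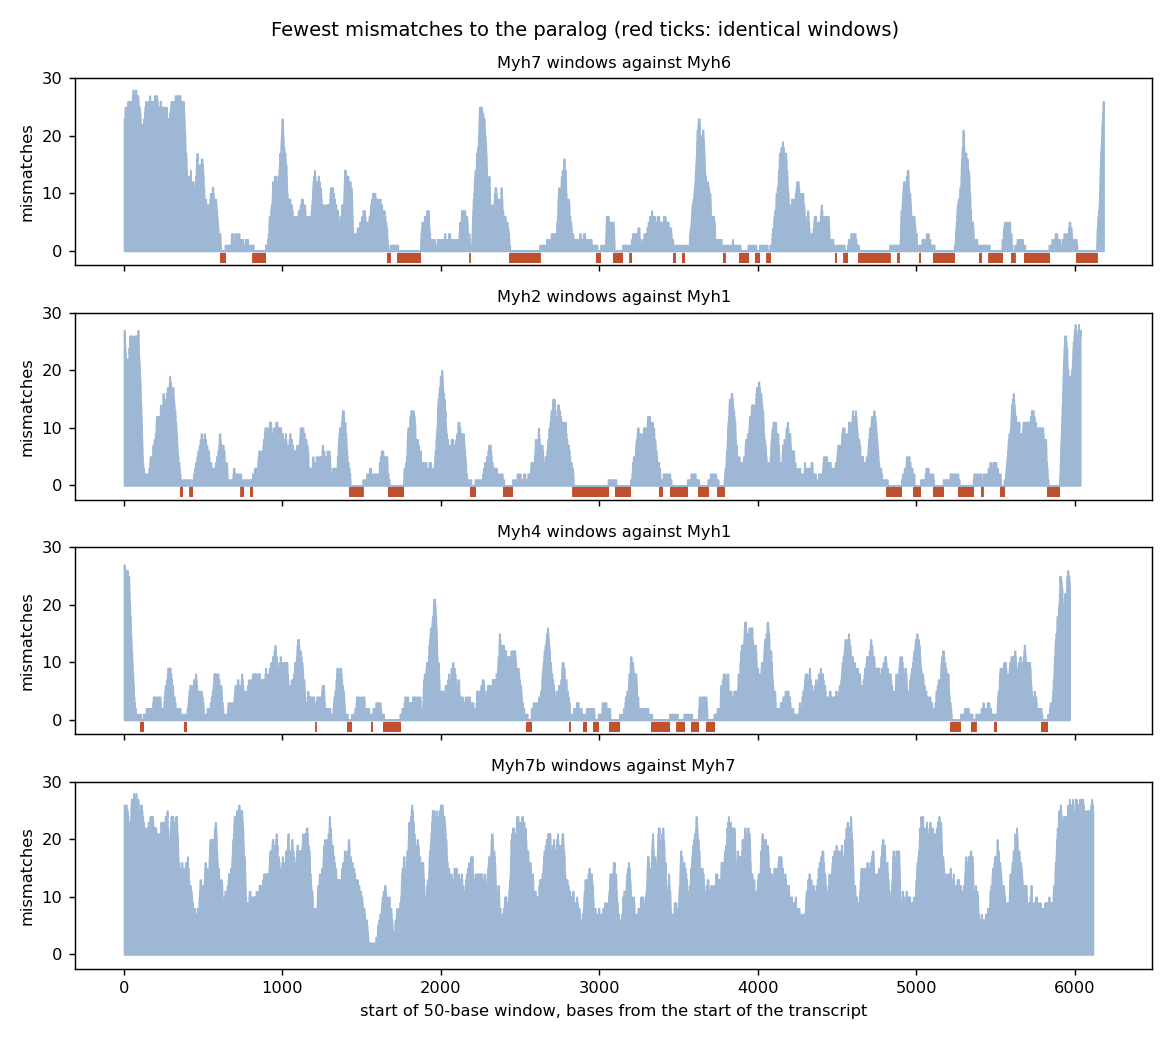
Fewest mismatches between each 50-base window of a transcript and its paralog, by the window's start in bases from the transcript start, for Myh7 against Myh6, Myh2 against Myh1, Myh4 against Myh1 and Myh7b against Myh7. Red ticks mark identical windows: they recur along most of Myh7 (22.2% of windows) and Myh2 (19.7%), are fewer in Myh4 (10.6%), and are missing from Myh7b.

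Windows before annotated starts of the cardiac pair are shown because both genes were called higher in KO hearts of the count table. They are the 250 bases before the annotated starts in RefSeq (GRCm38.p6), Myh6 at chr14:54966608-54966857 and the more upstream of the annotated Myh7 starts at chr14:54994627-54994876, both read on the minus strand. The GENCODE span of Myh6 given above begins at 54966927 on this strand. The Myh6 window therefore precedes the RefSeq start but lies inside the GENCODE gene. Capitals mark CATTCC (the core of the MCAT element, bound by TEAD factors) on either strand, and TATTTTT, an AT run like those bound by MEF2 factors.
Myh6: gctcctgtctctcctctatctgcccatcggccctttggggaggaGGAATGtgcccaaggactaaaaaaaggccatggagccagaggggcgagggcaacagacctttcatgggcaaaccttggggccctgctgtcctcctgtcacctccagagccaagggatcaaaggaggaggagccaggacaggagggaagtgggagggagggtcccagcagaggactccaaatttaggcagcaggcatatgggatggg
Myh7: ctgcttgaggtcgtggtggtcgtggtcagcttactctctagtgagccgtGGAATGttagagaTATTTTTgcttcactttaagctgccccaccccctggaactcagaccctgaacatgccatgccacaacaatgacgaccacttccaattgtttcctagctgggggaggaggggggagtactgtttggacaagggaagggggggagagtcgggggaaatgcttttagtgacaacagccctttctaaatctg

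Each window shown holds CATTCC once, on the reverse strand as GGAATG, and the Myh7 window also holds TATTTTT once. The window of the other annotated Myh7 start, chr14:54994550-54994799, overlaps the one shown and holds neither motif. Searched on both strands, CATTCC occurs in 12.6% and TATTTTT in 7.09% of 32851 promoter windows of the same length. The thyroid hormone receptor core AGGTCA, present in 14.0% of all windows, is spelled in none of these windows, which says only that these letters are not in these bases.

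Alpha-myosin Myh6 was the most abundant of the family in every heart and stood higher in all 4 KO hearts. It received 640863, 82547, 90914, 406909 and 259011 reads in WT hearts 1 to 5 and 845850, 624988, 884771 and 629280 in KO hearts 1 to 4. Scaled to CPM, the WT hearts lay between 26925 and 30063 and the KO hearts between 37636 and 45044, without overlap. The mean rose from 28586 ± 1114 to 41898 ± 3609 CPM (SD, n = 5 and 4), or by 0.55 ± 0.14 on the log2 scale (SE; adjusted p = 0.0052, edgeR). Once trends with GC content and length were taken out, the difference was 0.12 and did not pass (adjusted p = 0.296).

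In the FPKM table Myh6 behaved differently from its reads. WT hearts 1 to 5 stood at 5664, 3384, 3624, 5145 and 4322 FPKM, and KO hearts 2 and 4 at 9184 and 10952. KO hearts 1 and 3 are listed at 0, although they hold the 845850 and 884771 reads that are the highest of any heart. Scaled by what other genes' reads were worth, these reads would stand for 9490 and 9875 FPKM. The limma fold change over all hearts was therefore -5.44 ± 2.67 on the log2(FPKM + 1) scale (adjusted p = 0.106), and with the 2 zeros treated as missing it was 1.21 ± 0.32 (adjusted p = 0.0104, 5 against 2 hearts). The cause of the zeros was not tested. Other zeros on more than 1000 reads were found for Xirp2 in WT hearts 1, 2 and 4 and KO heart 1, for Cnot1 in KO heart 1 and for Otud4 in WT heart 1.

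Beta-myosin Myh7 rose most among the cardiac forms and was also the most variable among WT hearts. Its reads numbered 3759, 678, 4754, 2601 and 12847 in WT hearts and 71543, 35535, 51661 and 65561 in KO hearts. In CPM the WT hearts fell into a low trio, hearts 1, 2 and 4 at 169, 235 and 183, and a higher pair, hearts 3 and 5 at 1408 and 1491. KO hearts stood at 3398, 2140, 2612 and 4693 CPM, each above the highest WT heart. The low trio includes the deepest WT library and the shallowest, and the higher pair includes the other shallow library. The log2 fold change was 2.21 ± 0.58 (edgeR adjusted p = 0.0052). All 5 members lay higher in KO hearts without overlap in the count table, where 22.3% of all tested genes did. Myh2 and Myh4 passed the filter on low counts only through the KO hearts, so they had to differ, and the count of 5 cannot be set against that share.

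The FPKM table gave a similar fold change for Myh7 from different levels. WT hearts 1 to 5 stood at 582, 324, 590, 439 and 710 FPKM and KO hearts at 2590, 1882, 2249 and 3198. The split of WT hearts into a low trio and a high pair is not seen here: heart 1, low by reads, and heart 3, high by reads, stand at 582 and 590. The mean rose from 529 ± 150 to 2480 ± 559 FPKM (log2 fold change 2.25 ± 0.26, limma adjusted p = 2.4e-04), and with each heart centred on its median gene the change was 1.76. Without overlap, 41.3% of all tested genes lay higher in the KO hearts of that table.

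**Figure D2:**
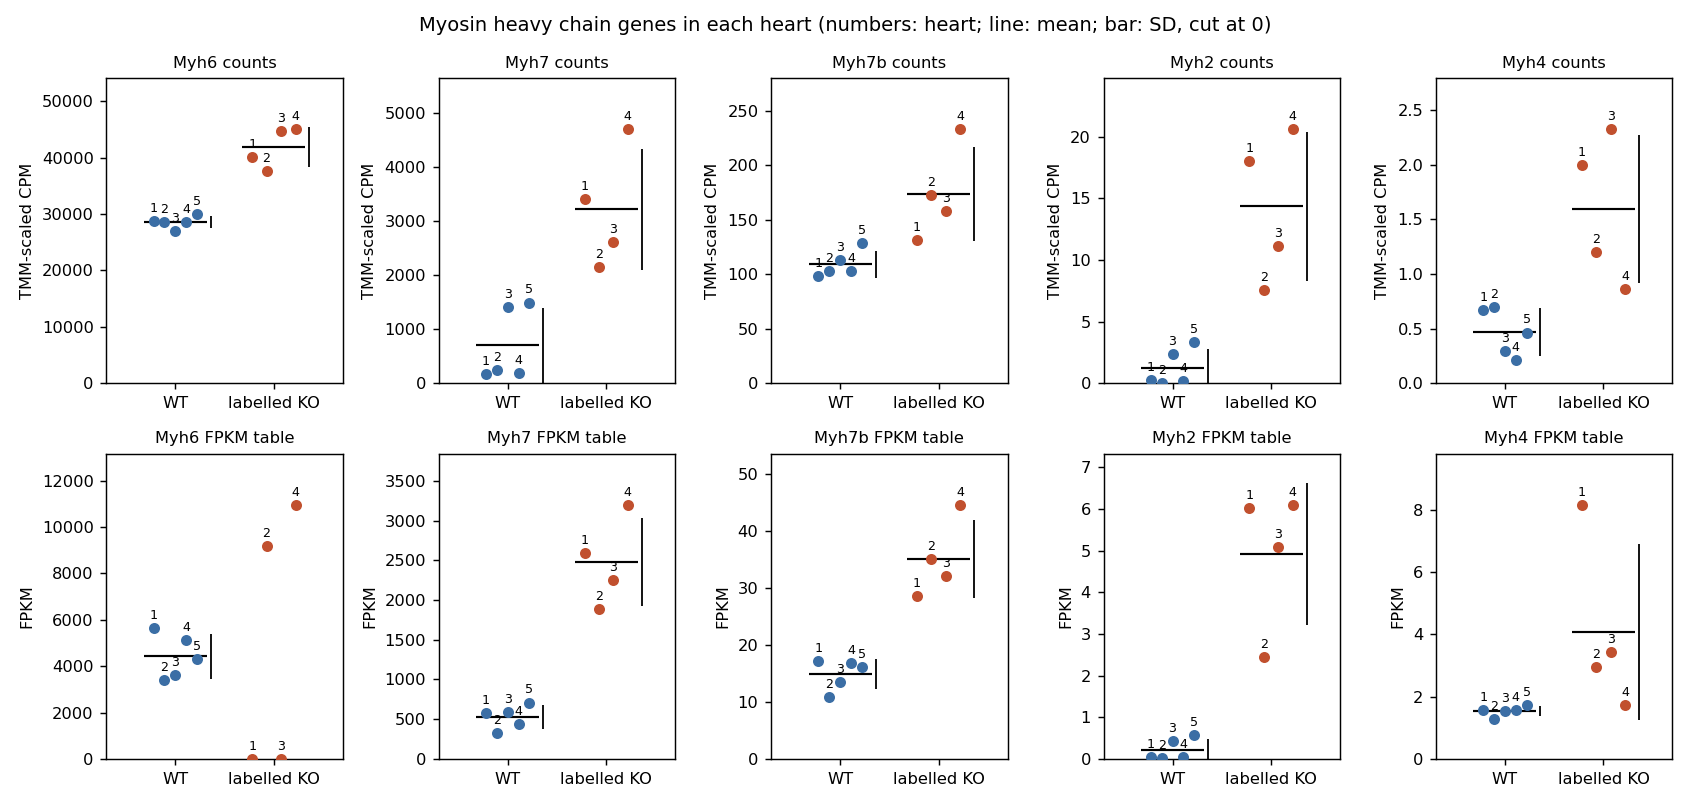
Level of each gene in each heart, as TMM-scaled CPM from the counts (top) and as FPKM (bottom), with WT hearts in blue, labelled KO hearts in orange, the group mean as a line and the SD as a bar cut at 0. In the counts all 4 KO hearts lie above all 5 WT hearts for each gene. In the FPKM table Myh6 is listed at 0 in KO hearts 1 and 3 (no KO mean is drawn), and Myh4 overlaps between the groups.

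The ratio of Myh7 to Myh6 needs no library scaling. Per 100 Myh6 reads, Myh7 had 0.587, 0.821, 5.23, 0.639 and 4.96 reads in WT hearts 1 to 5 and 8.46, 5.69, 5.84 and 10.4 in KO hearts 1 to 4. The groups did not overlap, but WT heart 3 at 5.23 came close to KO heart 2 at 5.69, and the low WT trio lay under 1. Means were 2.45 ± 2.42 and 7.60 ± 2.27 (SD, n = 5 and 4), and the difference in mean log2 ratio was 2.28, a 4.85-fold difference. A two-sided exact permutation test gave p = 0.0159, the smallest the design allows, and 0.079 after adjustment over the 5 ratios tested, which misses the threshold. The FPKM ratios among the 5, with 5 against 2 hearts, could not give a p under 0.095. An adjusted p under 0.05 would have needed the Myh7b to Myh6 ratio in reads to reach the smallest p as well. The miss was therefore largely set by the design. Per base of transcript the ratios hardly differ, for example 0.576 in place of 0.587 in WT heart 1. As a share of the reads of both genes, Myh7 ran from 0.583% in WT heart 1 (95% Wilson interval 0.565% to 0.602%) to 9.44% in KO heart 4 (9.37% to 9.50%), and these intervals cover counting error only.

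In FPKM the same ratio was higher in every heart that has it. Per 100 Myh6 FPKM, Myh7 stood at 10.3, 9.58, 16.3, 8.53 and 16.4 in WT hearts 1 to 5, at 20.5 in KO heart 2 and at 29.2 in KO heart 4. KO hearts 1 and 3 give no ratio, since Myh6 is listed at 0 there. The hearts kept their order in part: WT hearts 3 and 5 were again the highest of their group and KO heart 4 the highest of all. Their spread was smaller, and the difference in mean log2 ratio was 1.06, a 2.08-fold difference (5 against 2 hearts). Two-sided exact permutation gave p = 0.095, the smallest this design allows (adjusted p = 0.159).

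**Figure D3:**
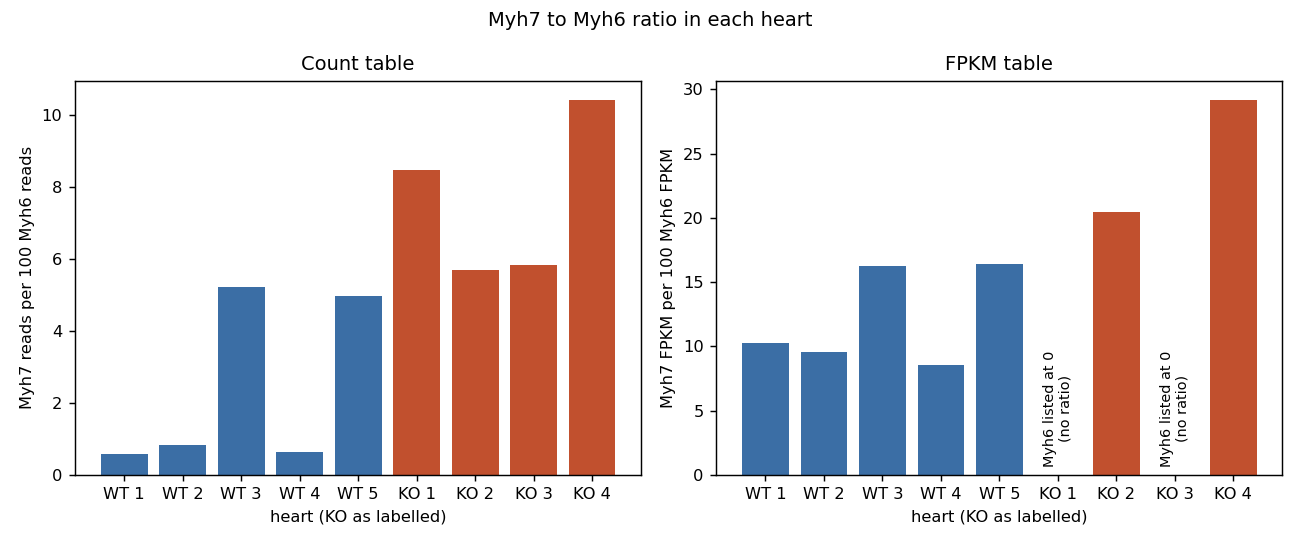
Myh7 to Myh6 ratio in each heart, per 100 Myh6 reads (left) and per 100 Myh6 FPKM (right), WT in blue and labelled KO in orange, both axes from 0. Read ratios lie between 0.587 and 5.23 in WT and between 5.69 and 10.4 in KO hearts, while FPKM ratios begin at 8.53, and KO hearts 1 and 3 have none.

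The ratio in FPKM exceeded the ratio in reads by a factor that was not constant. It was 17.5, 11.7 and 13.3 in WT hearts 1, 2 and 4, the low trio, and 3.12 and 3.31 in WT hearts 3 and 5. KO hearts 2 and 4, at 3.60 and 2.80, resembled the high WT pair. The factor was thus high in the hearts with the lowest Myh7 CPM. Its difference between the groups did not pass a two-sided exact permutation test (p = 0.286, adjusted p = 0.357, smallest possible p 0.095), which does not show that the groups are alike.

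Myh7 carried most of this discrepancy. The FPKM that a gene's reads imply was taken as its RPKM computed from the counts (reads relative to transcript length and assigned reads), times the median ratio of FPKM to that quantity over about 4199 genes of at least 300 reads on average. Myh7 FPKM exceeded the implied value 18.4, 12.1, 3.32, 13.8 and 3.56 times in WT hearts 1 to 5 and 3.29, 4.07, 3.97 and 3.34 times in KO hearts 1 to 4. Myh6, where not listed at 0, lay at 1.01 to 1.17 times its implied value, and Myh7b at 0.923 to 0.930 in every heart. In WT heart 1 no other gene of this set lay above Myh7, and in KO heart 4, where most did, 75 genes did. The factor is nearly the same in all hearts for most genes: the highest heart exceeded the lowest by 1.005 times in the median gene and by 1.55 times at the 99th percentile. For Myh7 it did so 5.61 times, and only Gm5177, at 8.53, varied more.

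The excess was also set against Myh6. The FPKM of Myh7 beyond its implied value amounted to between 8.02% (heart 4) and 12.5% (heart 5) of the implied Myh6 FPKM in WT hearts. In KO hearts 1 to 4 it amounted to 19.0%, 17.1%, 17.0% and 23.9%. These shares vary less between hearts than the Myh7 reads do, and the 2 sets of hearts do not overlap. The part of reads that match both genes was not tested, and how multiply mapped reads were treated is not given in the sources used here.

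**Figure D4:**
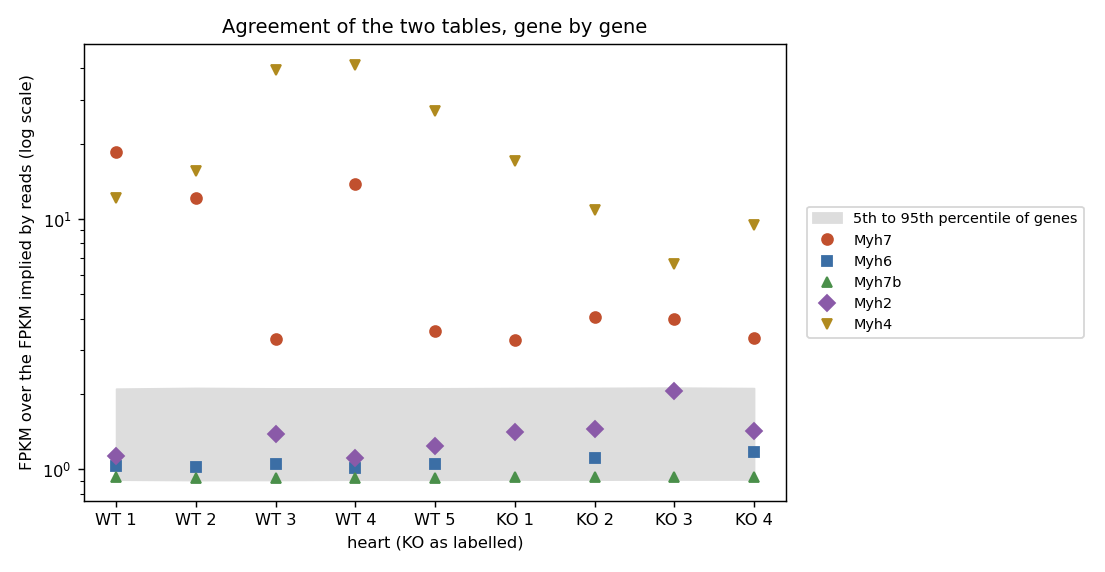
FPKM divided by the FPKM implied by the reads, on a log axis, for each of the 5 genes in each heart, with the 5th to 95th percentile of genes in grey. Myh7 lies above the grey band in every heart and highest, at 12.1 to 18.4, in WT hearts 1, 2 and 4, whereas Myh6 and Myh7b lie within it. Values of 0 (Myh6 in KO hearts 1 and 3) and Myh2 in WT heart 2, which has no reads, cannot be drawn.

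Myh7b, the member without long identical stretches, gave the same picture in both tables. It had 2186, 296, 383, 1464 and 1110 reads in WT hearts 1 to 5 and 2759, 2867, 3125 and 3256 in KO hearts 1 to 4. The mean rose from 109 ± 12.4 to 174 ± 43.2 CPM, by 0.67 ± 0.15 on the log2 scale (adjusted p = 0.0023, edgeR), with the highest WT heart at 129 and the lowest KO heart at 131 CPM. In FPKM it rose from 14.9 ± 2.68 to 35.1 ± 6.87 (1.18 ± 0.18, limma adjusted p = 5.4e-04; 0.69 with hearts centred on their median gene). Myh7b has the highest GC content of the 5, and once both trends were taken out its fold change in the counts was 0.04 (adjusted p = 0.823).

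Relative to Myh6, no difference in Myh7b was detected. It had 3.82 ± 0.40 reads per 1000 Myh6 reads in WT hearts and 4.14 ± 0.90 in KO hearts. The log2 difference was 0.10 (two-sided exact permutation p = 0.556, adjusted p = 0.556), and -0.02 without KO heart 4. In FPKM the ratio was 3.39 ± 0.31 per 1000 in 5 WT hearts, and 3.81 and 4.07 in KO hearts 2 and 4 (p = 0.095 by exact permutation, the smallest possible; adjusted p = 0.159).

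The skeletal fast myosins were present at trace levels and stood higher in KO hearts. Myh2 had 5, 0, 8, 3 and 29 reads in WT hearts and 379, 221 and 288 in KO hearts 1, 3 and 4. In CPM KO hearts 1 to 4 stood at 18.0, 7.59, 11.2 and 20.6, with heart 2 the lowest in reads and in CPM. The 0 in WT heart 2, the shallowest library, allows up to 3 reads, or 0.679 RPM (reads on the CPM scale without TMM factors). The mean rose from 1.23 ± 1.53 to 14.3 ± 6.01 CPM, by 3.82 ± 0.59 on the log2 scale (adjusted p = 1.3e-04, edgeR; 5.11 without WT heart 5). Myh4 had 15, 2, 1, 3 and 4 reads in WT hearts and 42, 20, 46 and 12 in KO hearts, and rose from 0.467 ± 0.217 to 1.596 ± 0.680 CPM (1.76 ± 0.43, adjusted p = 0.0031). Both genes were tested only because of their level in KO hearts.

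Among WT hearts Myh2 was highest in hearts 5 and 3, at 3.37 and 2.37 CPM against 0 to 0.224 in the others, which are the hearts that were also highest for Myh7. In FPKM Myh2 stood at 0.0485, 0.0125, 0.424, 0.0417 and 0.570 in WT and at 6.04, 2.44, 5.10 and 6.10 in KO hearts (log2 fold change 2.25 ± 0.23 on the log2(FPKM + 1) scale, limma adjusted p = 2.3e-04). Here too the gene passed the filter, a mean of at least 0.5 FPKM, only through the KO hearts. That scale understates low genes, and with a pseudocount of 0.01 the value was 5.38. Its FPKM lay at 1.11 to 2.06 times the value implied by reads in the 8 hearts with reads.

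Myh4 FPKM did not follow its reads. It stood at 1.58, 1.27, 1.53, 1.57 and 1.73 in WT hearts, where the reads numbered 1 to 15, and at 8.15, 2.93, 3.44 and 1.72 in KO hearts. These values are 6.60 to 41.3 times those implied by the reads, and KO heart 4 lies within the WT range. The call in FPKM (0.85 ± 0.28, limma adjusted p = 0.0236) was lost with hearts centred on their median gene (0.36, adjusted p = 0.285) and without the 2 shallowest WT hearts (0.80, adjusted p = 0.089). Myh1, which shares sequence with both genes, shows the same contrast: it had 0 to 12 reads in any heart, yet 5.15 to 8.23 FPKM in WT hearts and 3.06 to 22.8 in KO hearts. Levels of Myh4 in the FPKM table are uncertain.

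Markers of skeletal muscle were read beside these genes. Of 21 listed, 10 were tested, and 4 were called higher and 1 lower, where 26.2% of all tested genes were higher and 25.2% lower. With the trends removed 3 were called higher and 1 lower, where 18.6% of all tested genes were higher and 19.4% lower. The summed level of the listed markers was 1055 to 1679 CPM in WT and 2361 to 3432 in KO hearts. Most of that sum came from Ckm, which rose from 947 ± 194 to 1647 ± 245 CPM, and Acta1, which rose from 330 ± 110 to 1042 ± 221 CPM, both also made by cardiomyocytes. Mybpc2, the fast skeletal myosin-binding protein C, rose from 16.1 ± 1.81 to 28.0 ± 5.97 CPM (0.81 ± 0.16 on the log2 scale, edgeR adjusted p = 7.3e-04), without overlap. Cacna1s, a skeletal calcium channel subunit, rose from 14.4 ± 2.05 to 21.7 ± 1.71 CPM, and Neb, nebulin, fell from 17.3 ± 4.19 to 8.97 ± 4.63 CPM with overlapping groups. Neither Cacna1s nor Neb kept its call with the trends removed (edgeR adjusted p = 0.062 and 0.083). The fast light chain Myl1, at 28.7 ± 13.9 and 17.2 ± 2.17 CPM, and the calsequestrin gene Casq1, at 29.0 ± 10.5 and 32.9 ± 2.13 CPM, were also detected and were not called (adjusted p = 0.078 and 0.362). Tnni2, at 0.698 ± 0.336 and 0.919 ± 0.114 CPM, and Tnnt1, at 14.5 ± 2.94 and 17.6 ± 4.35, were not called (edgeR adjusted p = 0.370 and 0.159). Atp2a1, at 1.52 ± 0.426 and 0.999 ± 0.154 CPM, was not called either (adjusted p = 0.230). With the trends removed Atp2a1 was called lower (-0.85, adjusted p = 0.038). Some fast-fibre genes had few reads and were not tested: Mylpf stood at 0.437 ± 0.479 and 0.594 ± 0.170 CPM, Tnnt3 at 0.433 ± 0.214 and 0.443 ± 0.240, and Actn3 at 0.142 ± 0.132 and 0.275 ± 0.173. Pax7, the satellite cell factor, had no reads in any heart.

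Per length the order of the members was the same in KO hearts and, apart from its low end, in WT hearts. In RPKM computed from the counts, Myh6 ran from 3058 to 5033 in WT and from 7757 to 9173 in KO hearts. Myh7 ran from 24.6 to 183 and from 433 to 904, and Myh7b from 10.9 to 17.0 and from 28.6 to 45.4. Myh2 ran from 0 to 0.424 and from 1.57 to 4.07, and Myh4 from 0.0351 to 0.120 and from 0.171 to 0.485. Neighbours in this order did not overlap within a group, except Myh2 and Myh4 in WT hearts.

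Other sarcomeric heavy chain genes were almost silent, and the non-muscle genes were higher in KO hearts. Myh3, the embryonic form, had at most 2 reads in a heart, Myh8, the perinatal form, at most 8, Myh13 at most 3 and Myh15 none, and none of these nor Myh1 passed the filter. Myh9 and Myh14, which encode non-muscle heavy chains, rose from 235 ± 29.2 to 469 ± 127 CPM (0.996 ± 0.17 on the log2 scale, adjusted p = 2.2e-04) and from 69.4 ± 8.35 to 174 ± 28.5 CPM (1.32 ± 0.14, adjusted p = 7.3e-06). Myh10, another non-muscle gene, rose by 0.40 ± 0.14 (adjusted p = 0.024). The smooth muscle gene Myh11 stood at 104 ± 25.1 and 93.9 ± 12.5 CPM and was not called (-0.15 ± 0.17, adjusted p = 0.483). FPKM of these 4 genes matched their reads: Myh14 lay at 0.938 to 0.943 times the implied value and Myh11 at 0.915 to 0.924. With the trends removed Myh9 and Myh14 stood at 0.52 and 0.63 and remained called (adjusted p = 0.0048 and 2.0e-04).

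Noncoding genes lie within the cardiac myosin loci. Mir208a lies in intron 29 of Myh6, Mir208b in intron 31 of Myh7 and Mir499 in intron 19 of Myh7b, and each encodes a microRNA of the muscle myosin family. Their main mature products are printed from RefSeq (GRCm38.p6), with bases 2 to 8, the seed, in capitals, since the seed shows how alike they are.
miR-208a-3p: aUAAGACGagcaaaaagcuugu
miR-208b-3p: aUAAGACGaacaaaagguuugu
miR-499-5p: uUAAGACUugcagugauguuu

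The products of the cardiac pair share the seed UAAGACG, and miR-499-5p differs from it in the last seed base. The mature positions are chr14:54949072-54949093 and chr14:54975710-54975731 on the minus strand and chr2:155622893-155622913 on the plus strand. Libraries of polyadenylated RNA do not measure mature microRNAs, and reads in these rows come from the primary or host transcript. The Mir208b row had 13, 2, 0, 9 and 3 reads in WT hearts and 36, 42, 43 and 45 in KO hearts, without overlap (log2 fold change 2.21 ± 0.38, edgeR adjusted p = 2.5e-04). With so few reads in WT hearts, this row too passed the filter on low counts only through the KO hearts, so a higher level there was a condition of being tested. WT hearts 3 and 5, high for Myh7, were not high for this row. Mir208a had 0 to 8 reads in a heart and was not tested, and Mir499 had none. In the FPKM table Mir208a is listed at 0 in KO hearts 1 and 3 despite 2 and 7 reads, the hearts in which its host Myh6 is listed at 0.

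Mhrt, a noncoding RNA transcribed from the plus strand, from between the cardiac pair into Myh7, gave opposite directions in the tables. Its gene, chr14:54968678-54974349, overlaps that of Myh7 by 3666 bases, of which 463 are exonic in both, and without strand the reads cannot be told apart there. The row, matched through the RefSeq synonym D830015G02Rik, had 2490, 696, 564, 2656 and 1058 reads in WT hearts and 1653, 1431, 1463 and 1080 in KO hearts. It fell from 166 ± 52.3 to 79.0 ± 5.16 CPM (-1.06 ± 0.19 on the log2 scale, adjusted p = 3.7e-04), and the groups did not overlap. In the FPKM table it stood at 226 to 341 in WT and 350 to 512 in KO hearts, higher without overlap (0.54 ± 0.19, limma adjusted p = 0.036). That rise is close to the shift of the whole FPKM table, where the median gene stood 0.44 higher. There 47.2% of all tested genes were called higher and 41.3% lay higher without overlap. Its FPKM lay at 1.39 to 1.83 times the value implied by reads in WT hearts and at 2.50 to 4.32 times in KO hearts. Of the 50-base windows of Myh7, 4.56% occur in Mhrt on either strand, and so do 3.41% of those of Myh6, which had far more reads. The part of such reads in either table was not tested.

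Genes around the myosins were counted by role. Among all tested genes 26.2% were called higher and 25.2% lower, and with the trends removed 18.6% and 19.4%. Of 17 thick filament partners 12 were tested, and 6 were called higher and 1 lower (median log2 fold change 0.57, against -0.0059 for all genes). Myl3, the ventricular essential light chain, rose from 1522 ± 231 to 3596 ± 226 CPM, and Mybpc3, cardiac myosin-binding protein C, from 2000 ± 433 to 4130 ± 401. Mylk3, the cardiac myosin light chain kinase, rose by 0.86, while Ttn, the titin gene, fell by 0.67 (adjusted p = 0.018; 0.080 with the trends removed). Of 10 genes for myosin folding and turnover 5 were called higher and 1 lower. Unc45b, the muscle chaperone that folds the myosin head, rose from 116 ± 8.58 to 231 ± 38.2 CPM, and its general paralog Unc45a from 10.6 ± 2.38 to 21.5 ± 3.54. Smyd1, a muscle methyltransferase that acts with Unc45b, rose by 0.66 and Trim54, a muscle RING-finger protein, by 1.03. In both lists the number called higher was the same with the trends removed, but the medians fell to 0.30 and, from 0.50, to 0.25. The folding list did not keep the same genes: Smyd2 lost its call (edgeR adjusted p = 0.164) and Trim55 was newly called (adjusted p = 0.013).

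Genes of the thyroid hormone pathway did not share a direction in the counts before the trends were removed. Of 19 listed, 17 were tested, 4 called higher and 6 lower, with a median of -0.16. Among all tested genes 26.2% were called higher and 25.2% lower. Thra, the main cardiac thyroid hormone receptor, stood at 94.8 ± 17.7 and 94.4 ± 15.7 CPM, and Thrb at 19.3 ± 4.99 and 14.1 ± 2.77 (adjusted p = 0.997 and 0.053). The result for Thra depended on the processing. With the trends removed it was called lower (-0.68, edgeR adjusted p = 0.0039). In FPKM, where the median gene stood 0.44 higher, it was called higher (0.58, limma adjusted p = 0.0090). Thrb was called in neither. Pln, phospholamban, a gene repressed by the hormone, fell from 2366 ± 137 to 881 ± 123 CPM. Kcna5, a potassium channel gene, fell by 1.14, and the cofactor genes Ncor1 and Med1 fell by 0.70 and 0.72. With the trends removed 1 gene was called higher and 8 lower, where 18.6% of all tested genes were higher and 19.4% lower.

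Regulators of myosin heavy chain transcription were counted in the same way. Of 32 listed, 30 were tested, 6 called higher and 17 lower (median -0.41), where 26.2% of all genes were higher and 25.2% lower. With the trends removed 2 were higher and 10 lower, where 18.6% of all genes were higher and 19.4% lower. Tead1, which binds the MCAT element, fell from 335 ± 20.7 to 147 ± 22.1 CPM (-1.18 ± 0.13 on the log2 scale, adjusted p = 9.8e-06). Hdac2, a histone deacetylase, fell by 1.76, and Med13, a Mediator subunit and known target of miR-208a, by 1.41. The 6 called higher include the Mir208b row, which was tested only because of its level in KO hearts.

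Markers of other cell types were mixed, and among all tested genes 26.2% were called higher and 25.2% lower. Of 8 atrial markers 4 were tested and only Nppa was called, higher. The summed level of the atrial markers was 43.5 to 61.3 CPM in WT and 152 to 506 in KO hearts. Most of that rise was Nppa itself, which went from 34.9 ± 8.18 to 270 ± 154 CPM. The other tested atrial markers, Myl4, Gja5 and Nr2f2, were not called (edgeR adjusted p = 0.584, 0.179 and 0.677), so the sum does not show a rise shared by atrial markers. Of the 10 cardiomyocyte markers 4 were called higher and 1 lower. For smooth muscle 1 of 6 was higher. For fibroblasts 3 of 7 were higher and 2 lower, for endothelium 1 of 6 higher and 2 lower, and of the 5 tested immune markers 2 were higher and 1 lower. Their part in the myosin results was not tested.

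The genes most like each cardiac member were sought by correlation of log2 CPM across the 9 hearts after each group's mean was taken off, over 8891 genes that averaged 5 CPM or more. Nearest to Myh6 were Pcdh7 (r = 0.917), Fzd1 (0.912), Lgr6 (0.905) and Trio (0.888). Nearest to Myh7 were Rrp1b (0.962), Pelp1 (0.928), Syt11 (0.923) and Adcy4 (0.918), whose deviations had an SD of 0.11 to 0.27 log2 units against 1.17 for Myh7. Among the nearest to Myh7b were Ddrgk1 (0.970), Fam195b (0.963) and Sipa1l3 (0.949). Among the members, Myh7 and Myh2 were the most alike (r = 0.927), and Myh6 and Myh7 had r = 0.104. The value for Myh7 and Myh2 rests in part on counts near the floor, as Myh2 had 5, 0 and 3 reads in WT hearts 1, 2 and 4. These correlations are descriptions over 9 hearts that share libraries and scaling, and the highest among many genes compared is large by selection.

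**Figure D5:**
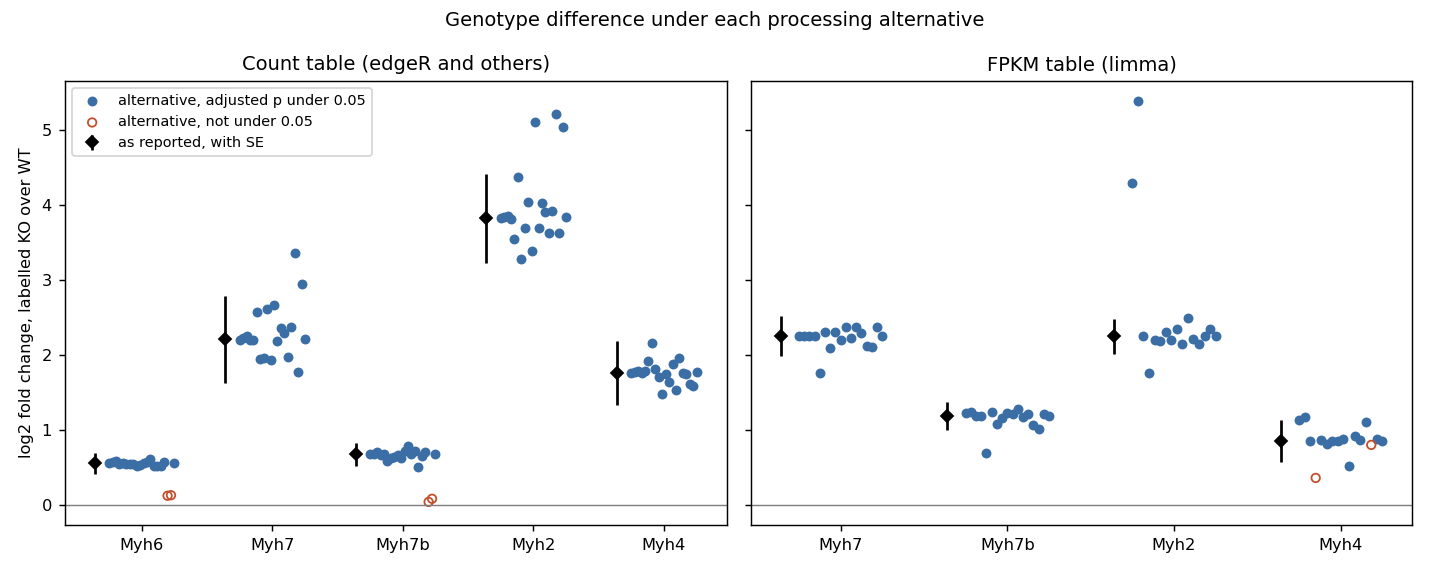
Log2 fold change of labelled KO over WT for each gene as reported (black, with SE) and under each processing alternative, for the counts (left) and FPKM (right, without Myh6, whose value rests on 2 zeros). Filled points pass an adjusted p of 0.05, open points do not: in the counts only Myh6 and Myh7b have open points, both where GC and length trends were removed, and in FPKM only Myh4.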

How the data were processed

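Both tables are the authors' own: whole-number counts of reads for each gene, tested here as deposited, and deposited FPKM for the same 9 hearts. Cufflinks 2.1, HTSeq, TopHat2 2.0.10, TopHat, Bowtie2, edgeR and DESeq are named in the submitters' processing notes, without roles, and so is the build mm10. Annotation, strand setting and how multiply mapped reads were handled: not given in the sources used here. No value of the targeted gene is reported here.

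Counts were tested with edgeR 4.0.16 (R 4.3.3): TMM scaling, its default filter (at least 10 reads, 15 in total), quasi-likelihood F tests and Benjamini-Hochberg adjustment over all genes, threshold 0.05. CPM is relative to the TMM-scaled library size. FPKM was tested with limma 3.58.1 on log2(FPKM + 1), with genes averaging under 0.5 left out. GC content and length trends were removed by lowess offsets (span 0.3) per heart, with values for 99.0% of tested genes, and this also removes biology that follows either. Ratios were compared on the log2 scale by two-sided exact permutation tests (SciPy 1.17.1), adjusted over 5 ratios. Sequences came from GENCODE vM21 transcripts and RefSeq tables. The procedures were tested on a single simulated set, in which 77 genes were changed 1.5-fold, 60 changed 2-fold and 63 changed 4-fold. In simulated counts edgeR recovered 20% of 1.5-fold, 79.7% of 2-fold and 100% of 4-fold changes, and 10.7% of its calls were false. For limma the shares were 13.0%, 81.8% and 100%, with 7.38% of calls false. Both shares of false calls exceeded the threshold of 0.05, and most 1.5-fold changes were missed. Far fewer genes were changed in the simulated set than were called in the hearts, so these shares need not hold for the hearts.

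Members and gene lists were chosen with earlier results of these data known. Named genes are the members, the other myosin heavy chain genes, up to 4 called genes with the smallest p per list, Mhrt, Mir208a, Mir208b, Mir499, Thra and Thrb, and the 4 genes most like each cardiac member. Genes named as values at or near 0 (Myl7, Sln, Mylpf, Tnnt3, Actn3 and Pax7), and Ttn, Neb, Myl1 and Casq1, were chosen after their values were seen, as was the treatment of Myh6 zeros as missing. Smyd2, Trim55, Myl4, Gja5, Nr2f2, Tnni2, Tnnt1 and Atp2a1 were also named after their values were seen. Alternatives were other scalings, filters, pseudocounts, DESeq2 1.42.0, limma-voom, omission of mitochondrially encoded genes and Rn45s, omitted hearts and a replicate block.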

Additional observations from a re-analysis of the deposited data

How the results depend on the processing

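In the count table the number of called genes, 6503, ranged from 5594 to 6752 with each heart left out in turn and was 6630 by DESeq2, 7350 by limma-voom and 4763 with GC and length trends removed. With a replicate block it was 5030, and with the block and the trends removed 3393. Same-numbered hearts did not deviate together (r = -0.130, 0.048, -0.136 and -0.369), and differently numbered hearts ran from -0.120 to 0.263. These few values cannot settle whether the numbers pair the hearts. For FPKM, 6730 calls became 4141 with a mean FPKM of at least 5, where fewer genes are tested, and 5643 to 7353 with each heart left out. Myh7, Myh2 and Myh4 remained called in the counts under all 20 alternatives, but a higher level in KO hearts was a condition of testing Myh2 and Myh4 wherever low counts were filtered; with no filter they stood at 3.85 and 1.79. Myh7 ranged from 1.93 to 2.66 with each heart left out and was 3.36 with the replicate block. Myh2 ranged from 3.28 to 5.11, the latter without WT heart 5, and was 5.22 with the block. Myh6 and Myh7b lost their calls where GC and length trends were removed, and with the block added stood at 0.13 and 0.08 (adjusted p = 0.454 and 0.690). Myh6 in FPKM turned from -5.44 to 1.21 with its zeros treated as missing, and was -7.61 and -7.70 (adjusted p = 0.028 and 0.025) without KO hearts 2 and 4, when mostly zeros remain. The Myh7 to Myh6 log2 difference ranged from 1.94 to 2.73 in counts and from 0.80 to 1.31 in FPKM with each heart left out, and was 2.71 in counts with the replicate block (adjusted p = 0.5). No alternative brought any of the 5 ratios to an adjusted p under 0.05, which several of these designs cannot reach. The Myh7b to Myh6 difference in counts ranged from -0.019 to 0.20, below 0 only without KO heart 4. Depth limits Myh4 and WT Myh2, which rest on 0 to 46 and 0 to 29 reads a heart. FPKM carries no depth of its own.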

Other observations

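Among 27 groups of 4 or 5 hearts examined for the members and their ratios, no heart lay apart from the rest of its group by Dixon's criterion (gap over range above 0.829 for 4 hearts and 0.71 for 5), where chance alone would mark about 1 group in 20. The WT hearts 3 and 5, high for Myh7 and Myh2, pass this criterion because they are a pair.

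The Myh8 and Myh13 rows show the FPKM pattern of Myh1 at a smaller scale. Myh8 had 0 to 3 reads in WT hearts and 3 to 8 in KO hearts, and stood at 0.112 to 0.141 and 0.257 to 0.375 FPKM. Myh13 had at most 3 reads in any heart and stood at 0.0602 to 0.107 FPKM in WT and 0.120 to 0.289 in KO hearts. Neither was tested for genotype in the counts, and what gives FPKM above 0 in hearts without reads was not tested.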
